A study of Mus musculus with 10 samples.

Results

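The 10 genes described here mark the spinal cord, the tissue that lies beside the dorsal root ganglia (DRGs) in the embryo, and they were examined in DRG samples as a check on carried-over cord. They are Pax2, Pax6, Slc6a5, Gad1, Gad2, Slc32a1, Olig2, Lhx1, Lbx1 and Nkx2-2, chosen by name with earlier results of these data known. All 10 had a probe set of their own in the deposited table, which held 19938 genes measured in this way. Expression was measured on one-colour Affymetrix Mouse Gene 1.0 ST arrays in DRGs taken directly from mouse embryos at E13.5. There were 5 Lkb1 KO and 5 WT samples, each 1 array with the DRGs of 2 embryos pooled, so that n counts pools. In Lkb1 KO embryos, on a mixed genetic background, a floxed Lkb1 gene (symbol Stk11) was removed by Wnt1-Cre. This Cre is active in the neural crest, which gives rise to the neurons and glia of the DRG, and also in the midbrain and the dorsal neural tube, so the dorsal spinal cord of Lkb1 KO embryos is itself part of the deleted tissue. WT embryos were littermates, and the sources used here do not say which of them carried Cre or floxed alleles. Stk11 itself read 7.78 ± 0.11 in Lkb1 KO pools and 8.70 ± 0.22 in WT pools (SD, n = 5 each), and the groups did not overlap. The labels call the samples biological replicates. A p-value here sets the difference between the groups against the spread between these pools.

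In the embryonic spinal cord, dividing progenitors line the central canal in bands along the dorsoventral axis, each marked by its own transcription factors. Olig2 marks the band that gives rise to motor neurons, Nkx2-2 the band below it, and Pax6 many of the bands above. Cells that leave the cycle settle as interneurons, of which many inhibitory ones carry Pax2 and Lhx1 and many dorsal ones Lbx1. Inhibitory neurons make GABA with the 2 glutamate decarboxylases Gad1 and Gad2, take up glycine with the transporter Slc6a5, and load both into vesicles with Slc32a1. DRG sensory neurons, by contrast, are mainly glutamatergic.

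All 10 genes had low signals in both groups, and 3 of them were slightly higher in Lkb1 KO pools. Pax2, Pax6 and Slc6a5 were each 1.18 to 1.19-fold higher and passed an adjusted p of 0.05 in limma. No gene of the 10 passed it as lower, and none passed 0.01. The share of all 19938 genes that passed 0.05 was 2.49% higher and 1.38% lower. At an unadjusted p under 0.05 from limma 6 of the 10 were higher and none lower, against 7.51% higher and 7.77% lower over all genes. The 6 were Pax2, Pax6, Slc6a5, Gad2, Lhx1 and Gad1. Slc32a1, Lbx1, Olig2 and Nkx2-2 did not pass either threshold. The median log2 fold change of the 10 was 0.10, beside -0.0017 over all genes tested. Because the 10 were chosen with earlier results known, these counts and the median only describe them and test no enrichment. In these bulk samples more cells of a type and more RNA per cell cannot be told apart.

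The values of the 10 genes in each pool show how small these differences were beside the range of all values on the arrays, which ran from 3.69 to 14.31.

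**Figure D1:**
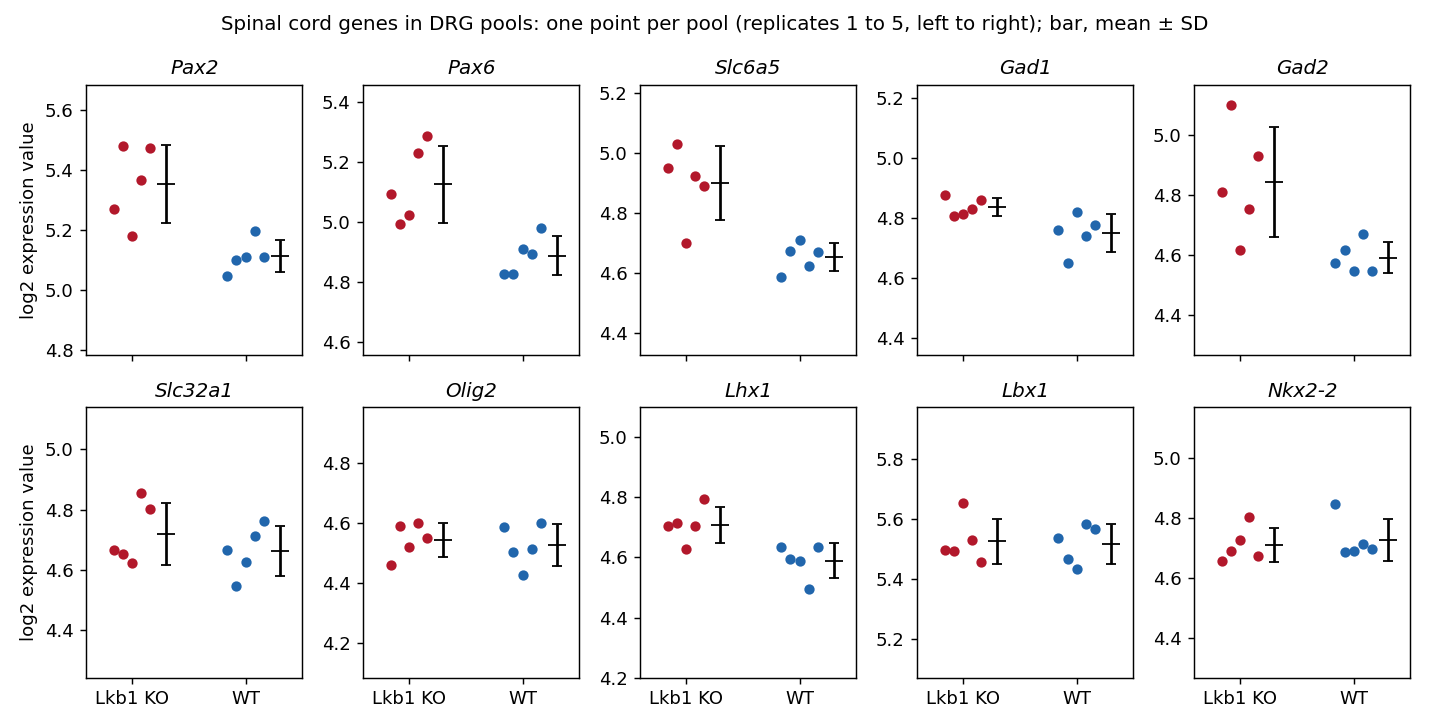
Log2 expression values (y axis) of the 10 spinal cord genes in 5 Lkb1 KO pools (red) and 5 WT pools (blue), 1 point per pool. The black bar is the mean and SD of the 5 pools. Each panel is centred on the mean of its own gene and spans the same number of log2 units, so heights cannot be compared between panels. For Pax6 the lowest Lkb1 KO pool, at 4.99, lies just above the highest WT pool, at 4.98, while for Nkx2-2, Olig2 and Lbx1 the groups cover the same values.

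The signals lay where the array reads genes that neither DRG nor spinal cord is expected to use. Means over the 10 pools ran from 4.54 for Olig2 to 5.52 for Lbx1. The 18 measured genes of a list from the retina, kidney, pancreas, lung, gut, hair and germ cells, such as the insulin gene Ins2 and the glucagon gene Gcg, had means from 4.46 to 5.68. The 10 spinal cord genes fell within that range in their means. Signals of different probe sets also depend on how well the probes bind, so this places the signal and gives no order of transcript amounts. No detection call was used, and whether any of the 10 transcripts was present is not settled by these values. By contrast, 14 genes of sensory neurons had means from 7.53 to 11.99, including 11.64 for Isl1, which marks sensory neurons, and 11.99 for the peripheral neurofilament gene Prph.

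The promoters of the 3 genes that passed the test are shown because these genes were higher in the same comparison, each by a small amount. Each is the RefSeq window (GRCm38.p6) furthest upstream for its gene, from 250 bases before the annotated start to 50 after it, on the plus strand. Capitals mark the E-box CANNTG, read by basic helix-loop-helix factors such as those of progenitors, and TGACG on either strand, the core of the cAMP response element read by CREB, whose coactivators are held in check by kinases downstream of Lkb1.
Pax2 (chr19:44746351-44746650): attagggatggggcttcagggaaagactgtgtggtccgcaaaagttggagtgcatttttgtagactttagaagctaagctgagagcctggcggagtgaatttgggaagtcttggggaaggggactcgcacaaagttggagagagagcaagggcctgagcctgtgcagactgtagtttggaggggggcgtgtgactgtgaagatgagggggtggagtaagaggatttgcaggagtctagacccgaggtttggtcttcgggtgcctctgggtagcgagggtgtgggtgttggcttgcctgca
Pax6 (chr2:105668646-105668945): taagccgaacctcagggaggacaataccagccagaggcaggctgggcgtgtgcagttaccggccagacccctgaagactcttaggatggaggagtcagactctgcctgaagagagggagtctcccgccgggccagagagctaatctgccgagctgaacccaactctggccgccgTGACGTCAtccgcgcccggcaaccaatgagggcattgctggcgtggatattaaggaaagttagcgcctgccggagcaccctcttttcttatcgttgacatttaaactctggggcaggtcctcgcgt
Slc6a5 (chr7:49910049-49910348): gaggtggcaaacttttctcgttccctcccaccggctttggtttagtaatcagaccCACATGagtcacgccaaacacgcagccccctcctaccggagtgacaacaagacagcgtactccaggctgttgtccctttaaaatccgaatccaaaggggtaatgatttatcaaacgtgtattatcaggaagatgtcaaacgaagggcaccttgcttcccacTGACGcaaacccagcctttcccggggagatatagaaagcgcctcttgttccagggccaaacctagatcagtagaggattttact
The Pax6 window held the full palindrome TGACGTCA, which 1.79% of all 32851 windows held, and no E-box. The Slc6a5 window held 1 E-box and 1 TGACG, and the Pax2 window neither. This holds for the windows shown. Of the windows not shown, those of Pax2 held 1 and 2 E-boxes, that of Pax6 1 E-box and 2 TGACG, and that of Slc6a5 2 E-boxes. Among all 13 windows of the 9 genes matched, 9 held CANNTG and 5 held TGACG on either strand, against 72.3% and 20.8% of all windows. Lbx1 was not matched. These matches describe only the letters of the windows.

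Of the 3 genes of cord progenitors, Pax6 passed the test and Olig2 and Nkx2-2 did not. Olig2 read 4.46, 4.59, 4.52, 4.60 and 4.55 in Lkb1 KO replicates 1 to 5, and 4.59, 4.50, 4.43, 4.51 and 4.60 in WT replicates 1 to 5. The groups overlapped throughout. Its log2 fold change was 0.018, with a 95% confidence interval from -0.077 to 0.11 (adjusted p = 0.905 from limma). Nkx2-2 was at 4.66, 4.69, 4.73, 4.80 and 4.67 in Lkb1 KO and at 4.85, 4.69, 4.69, 4.71 and 4.70 in WT. WT replicate 1 was the highest of the 10 pools, and the interval of the log2 fold change ran from -0.11 to 0.078. As folds of Lkb1 KO over WT, the intervals were 0.948 to 1.08 for Olig2 and 0.926 to 1.06 for Nkx2-2.

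Pax6 stood apart from these 2. It read 5.09, 4.99, 5.02, 5.23 and 5.29 in Lkb1 KO replicates 1 to 5, against 4.83, 4.83, 4.91, 4.89 and 4.98 in WT. It was the only gene of the 10 whose Lkb1 KO pools all lay above all WT pools, a separation found in 3.09% of all genes, and none of the 10 had all its Lkb1 KO pools below all WT pools, as 2.24% of all genes did. Lkb1 KO pools averaged 5.12 ± 0.13 and WT pools 4.89 ± 0.06 (SD, n = 5 each). The difference of 0.24 log2 units, or 1.18-fold, had an SE of 0.06, and limma gave it an adjusted p of 0.044. An exact two-sided permutation test over the 252 assignments of the pools gave p = 0.00794, the smallest it allows. When labels were exchanged only between pools of the same replicate number, which leaves 32 assignments, the exact p was 0.0625, again the smallest possible, with Pax6 higher in Lkb1 KO in 5 of 5 pairs. The adjusted p from limma was above 0.05 in 7 of 10 fits that left out 1 pool, and it stayed under 0.05 without Lkb1 KO replicate 2 (0.0346), Lkb1 KO replicate 3 (0.0433) or WT replicate 5 (0.0405).

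Among the transcription factor genes of interneurons, Pax2 passed the test and Lhx1 and Lbx1 did not. Pax2 was at 5.27, 5.48, 5.18, 5.37 and 5.47 in Lkb1 KO replicates 1 to 5 and at 5.05, 5.10, 5.11, 5.20 and 5.11 in WT. Of the Lkb1 KO pools 4 lay above every WT pool, and replicate 3 did not. Lkb1 KO pools averaged 5.35 ± 0.13 and WT pools 5.11 ± 0.05 (SD, n = 5 each), which differ by 0.24 log2 units (SE 0.06, limma adjusted p = 0.0382). The exact two-sided permutation test gave p = 0.0159, and 0.0625 within replicate numbers, with 5 of 5 pairs higher in Lkb1 KO. In limma the call was kept without Lkb1 KO replicate 1 (adjusted p = 0.0354) or replicate 3 (0.0125) and was lost without any 1 of the other 8 pools, where the adjusted p lay between 0.0543 and 0.0964.

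Lhx1, which is often found in the same inhibitory interneurons as Pax2, had smaller differences. It read 4.71, 4.71, 4.63, 4.71 and 4.80 in Lkb1 KO and 4.64, 4.60, 4.59, 4.49 and 4.64 in WT. In 4 Lkb1 KO pools it was above every WT pool, and the difference of 0.12 log2 units had an SE of 0.04 (limma adjusted p = 0.167). Lbx1 was at 5.50, 5.49, 5.65, 5.53 and 5.46 in Lkb1 KO and at 5.54, 5.47, 5.43, 5.59 and 5.57 in WT, and its groups overlapped. The interval of its log2 fold change was -0.093 to 0.11.

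Of the 4 genes for making, taking up or loading inhibitory transmitter, Slc6a5 passed the test. This transporter returns glycine to the endings of glycinergic neurons. It read 4.95, 5.03, 4.70, 4.92 and 4.89 in Lkb1 KO replicates 1 to 5, against 4.59, 4.67, 4.71, 4.62 and 4.67 in WT. Lkb1 KO replicate 3 fell within the WT values and the other 4 above them. Lkb1 KO pools averaged 4.90 ± 0.12 and WT pools 4.65 ± 0.05 (SD, n = 5 each), 0.25 log2 units apart (SE 0.06, limma adjusted p = 0.0278). In the exact two-sided permutation test p was 0.0159, and 0.125 within replicate numbers, with 4 of 5 pairs higher in Lkb1 KO. In limma, leaving out Lkb1 KO replicate 3, WT replicate 3 or WT replicate 5 kept the call (adjusted p = 0.0033, 0.0478 and 0.0464), and leaving out any 1 of the other 7 pools lost it, with an adjusted p between 0.0516 and 0.0746.

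Gad2 had a fold change as large as that of Slc6a5 and more spread among the Lkb1 KO pools. It was at 4.81, 5.10, 4.62, 4.75 and 4.93 in Lkb1 KO and at 4.58, 4.62, 4.55, 4.67 and 4.55 in WT. Lkb1 KO replicates 2 and 5 were the highest and replicate 3 lay among the WT pools. The log2 fold change of 0.25 had a standard error of 0.07 and an adjusted p of 0.0931 from limma. When the replicate number was fitted as a block, the adjusted p from limma was 0.0455, and without Lkb1 KO replicate 3 it was 0.0263. The log2 fold change of Gad2 was 0.10 with Y-linked signal as a covariate (limma adjusted p = 0.361), 0.14 without Lkb1 KO replicates 2 and 5 (limma adjusted p = 0.271) and 0.19 without replicate 2 alone (limma adjusted p = 0.148).

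Gad1, the other decarboxylase gene, was at 4.88, 4.81, 4.81, 4.83 and 4.86 in Lkb1 KO and at 4.76, 4.65, 4.82, 4.74 and 4.78 in WT. Its log2 fold change was 0.088 (adjusted p = 0.293 from limma), with 3 Lkb1 KO pools above every WT pool. Slc32a1, the vesicular transporter gene, read 4.66, 4.65, 4.62, 4.85 and 4.80 in Lkb1 KO, against 4.66, 4.54, 4.62, 4.71 and 4.76 in WT. Its groups overlapped, and the interval of the log2 fold change was -0.063 to 0.18 (adjusted p = 0.716 from limma).

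**Figure D2:**
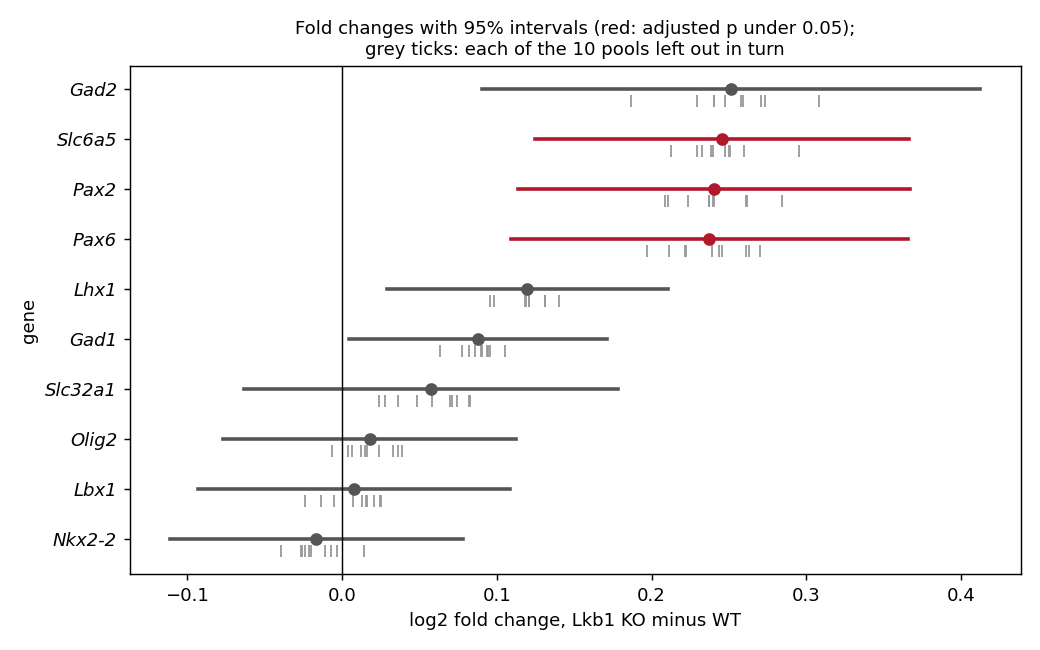
Log2 fold change of each gene (x axis, Lkb1 KO minus WT) with its 95% confidence interval from limma, red where the adjusted p was under 0.05 and grey otherwise. Grey ticks below each bar are the fold changes with each of the 10 pools left out in turn, which for Pax2 run from 0.21 to 0.28.

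Differences were uneven among the pools of Lkb1 KO, and the genes did not all follow one pattern. Set against the WT mean of each gene, Lkb1 KO replicate 4 was higher for all 10 genes and replicates 1, 2, 3 and 5 for 7, 7, 8 and 8. Counting genes above every WT pool gave 6, 5, 2, 8 and 7 for Lkb1 KO replicates 1 to 5. By this second count replicate 3 was closest to WT. The same counts over all genes are not given here, so these only compare the pools for the 10 genes. The mean over the 10 genes was between 4.85 and 4.97 in Lkb1 KO pools and between 4.77 and 4.84 in WT pools. The list of genes from other tissues also had its highest mean in Lkb1 KO replicate 4, at 4.99. With the mean of that list subtracted, the mean of the 10 was -0.033 and -0.031 in Lkb1 KO replicates 4 and 3. It was 0.022, 0.065 and 0.087 in Lkb1 KO replicates 1, 2 and 5, and -0.087 to -0.063 in WT pools.

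**Figure D3:**
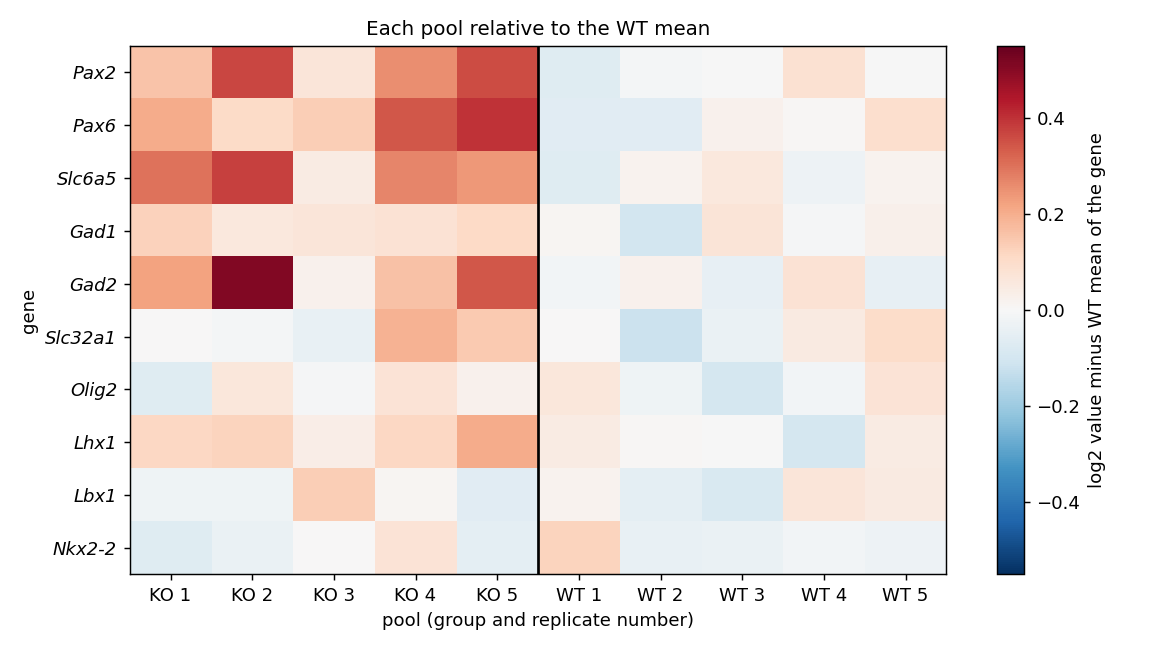
Log2 value of each gene (rows) in each pool (columns, 5 Lkb1 KO then 5 WT) minus the WT mean of that gene. The rows of Pax2, Pax6, Slc6a5 and Gad2 are red over most Lkb1 KO pools, palest in replicate 3 for all but Pax6, while those of Olig2, Lbx1 and Nkx2-2 change sign from pool to pool.

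Whether the genes varied together within a group was described with each value taken relative to its own group's mean, over the 10 pools. Of the 45 pairs of genes, 29 had a correlation above 0, with a median of 0.16. The highest was that of Pax2 with Gad2, at 0.85, and the next that of Pax6 with Slc32a1, at 0.84. The lowest was -0.74, for Slc6a5 with Lbx1. All pairs share the arrays and their normalization. Among genes with a mean of at least 6.5, the 8 whose values followed the mean of the 10 most closely were Serpinb8, Fancb, Mrps23, Gm10863, Kyat1, Qsox1, Osr1 and Hdac7, with correlations over the 10 pools from 0.93 down to 0.86. None of them was on a spinal cord list, and none passed the test between the groups (adjusted p from 0.375 to 0.826 from limma). The 8 were picked as the closest of all these genes over only 10 pools. Whether they vary with the 10 beyond that choice was not tested.

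Other genes of the spinal cord were counted in the same fit. Of 49 measured genes on 4 further lists, for progenitors, interneurons, motor neurons, and the roof and floor plates, none passed limma's test in either direction (adjusted p under 0.05). At an unadjusted p under 0.05 from limma 5 of the 49 were higher and 3 lower, against 7.51% and 7.77% of all genes. With the replicate number as a block in limma, Foxp2 and Pax8 were higher and Slc5a7 lower (adjusted p = 0.00639, 0.0171 and 0.0217). Of all 19938 genes, 715 were higher and 565 lower in that fit (adjusted p under 0.05). The medians of the log2 fold changes were 0.020 for 17 progenitor genes, 0.049 for 21 interneuron genes, 0.014 for 6 motor neuron genes and 0.013 for 5 roof and floor plate genes. Mean signals were under 6 for 45 of the 49. Of the 2 brightest genes on each list by mean signal, Sox1 and Irx3 among the progenitor genes read 5.56 and 5.54, and Shh, the floor plate morphogen, and Gdf7, a roof plate ligand gene, read 5.73 and 5.24. The motor neuron homeobox gene Lhx4 read 6.03.

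The 5 with an unadjusted p under 0.05 and a higher level, named after their values were seen, were Pax8, Skor1, Foxp2, Lhx5 and Msx1. Pax8, a relative of Pax2 found in many of the same interneurons, averaged 5.52 ± 0.10 in Lkb1 KO pools and 5.34 ± 0.08 in WT pools (SD, n = 5 each), 0.18 log2 units apart (limma adjusted p = 0.0996). Skor1, a corepressor gene of dorsal interneurons, had 0.16 (adjusted p = 0.202 from limma). The homeobox gene Lhx5 had 0.093 and the roof plate gene Msx1 0.12. The 3 with a lower level were Lhx2 (-0.13), Skor2 (-0.14) and Slc5a7 (-0.22), the last being the choline transporter gene of cholinergic neurons. Foxp2 and Slc5a7 had mean signals of 8.21 and 7.38. Foxp2 averaged 8.33 ± 0.18 in Lkb1 KO pools and 8.08 ± 0.13 in WT pools (SD, n = 5 each, limma adjusted p = 0.142). Wnt1, a roof plate gene whose regulatory sequences drive the Cre, read 4.69 ± 0.12 in Lkb1 KO pools and 4.47 ± 0.07 in WT pools (SD, n = 5 each). All 5 Lkb1 KO pools lay above the WT pools for Wnt1 (limma adjusted p = 0.0614, or 0.0254 with the replicate number as a block).

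Other genes that handle GABA or glycine but are not confined to the cord had mean signals from 5.16 to 10.20. None of the 7 measured passed the test. At an unadjusted p under 0.05 from limma 2 of the 7 were higher and 0 lower, against 7.51% and 7.77% of all genes. Abat, the enzyme that breaks down GABA, read 10.26 ± 0.05 in Lkb1 KO pools and 10.13 ± 0.06 in WT pools (SD, n = 5 each, limma adjusted p = 0.103). Gphn, the scaffold of inhibitory synapses, was at 9.75 in Lkb1 KO and 9.80 in WT. The GABA transporter gene Slc6a13, which meninges also express and which stands on the meningeal list too, differed by 0.18 log2 units (limma adjusted p = 0.224, or 0.0375 with the replicate number as a block).

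**Figure D4:**
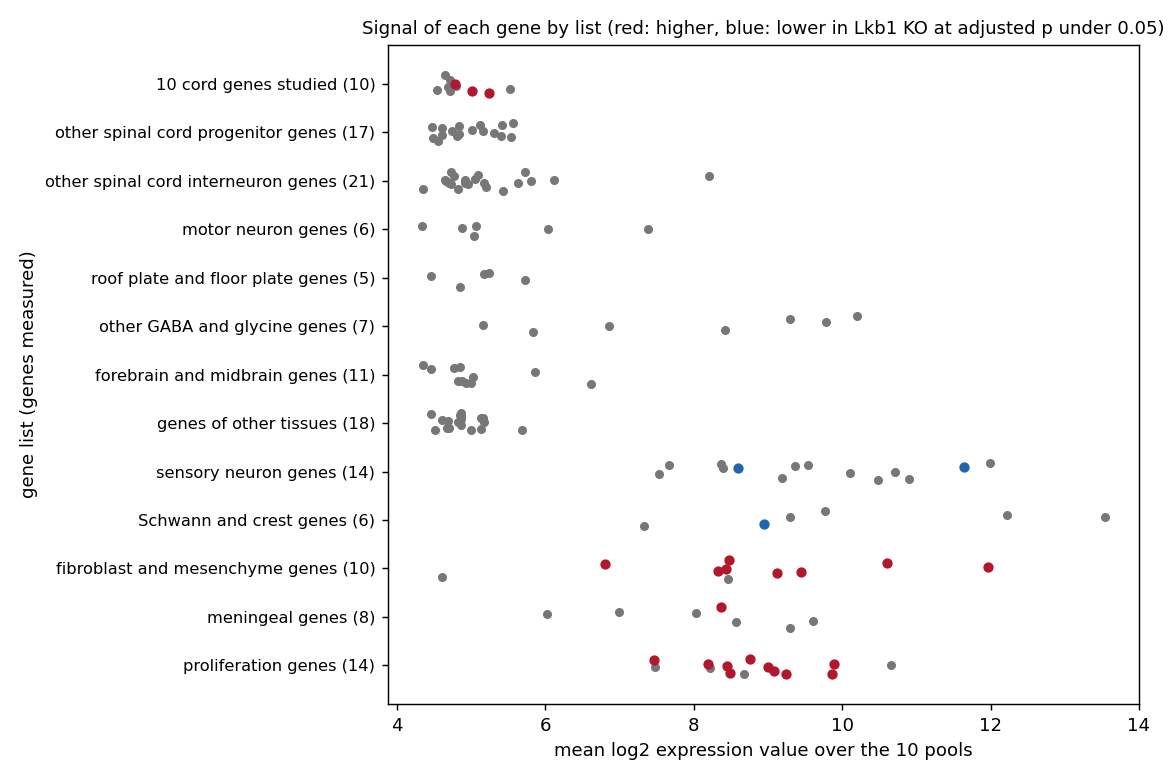
Mean log2 expression value over the 10 pools (x axis) of each gene on 13 lists (y axis, with the number of genes measured), red where Lkb1 KO was higher and blue where it was lower (adjusted p under 0.05 in limma) and grey otherwise. The 10 spinal cord genes lie between 4.54 and 5.52, in the range of the genes of other tissues, and the sensory neuron genes between 7.53 and 11.99.

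Brain regions that do not touch the DRG gave a further set of neural genes. Of 11 genes of forebrain and midbrain none passed the test and none had an unadjusted p under 0.05, and their median log2 fold change was 0.0072. Emx1, a cortical homeobox gene, read 5.88 in Lkb1 KO and 5.83 in WT. Neurod6, a neuronal bHLH gene, had the brightest signal of this list, at 6.67 ± 0.45 in Lkb1 KO pools and 6.56 ± 0.41 in WT pools (SD, n = 5 each).

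Genes not expected in either tissue were examined for a like difference. The list of other tissues had a mean of 4.99 in Lkb1 KO replicate 4 and of 4.88 to 4.89 in the other Lkb1 KO pools, which lay within the 4.85 to 4.90 of the WT pools. Lkb1 KO minus WT was 0.030 for this list mean over all pools and 0.0077 without Lkb1 KO replicate 4. All 18 genes of that list fell short of the test, with a median log2 fold change of 0.041, and 13 had one above 0. At an unadjusted p under 0.05 from limma 2 of the 18 were higher and 0 lower, against 7.51% and 7.77% of all genes. With the arrays aligned on that list, a choice made after seeing these values, Pax2, Pax6 and Slc6a5 had log2 fold changes of 0.21, 0.21 and 0.22 and adjusted p-values of 0.0998, 0.0801 and 0.0837 from limma. All 3 calls were then lost.

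Genes that differ between the sexes were uneven among the pools. The mean of Eif2s3y, Uty and Kdm5d, 3 Y-linked genes, was low in Lkb1 KO replicates 2 and 5, at 5.02 and 5.21, and lay between 8.80 and 9.81 in the remaining 8 pools. The female-specific RNA Xist was at 4.89 in Lkb1 KO replicate 3 and 11.70 to 12.37 in the other 4 Lkb1 KO pools, and at 4.48 to 5.46 in WT replicates 1, 3 and 5 and 11.79 and 11.81 in the other 2 WT pools. Lkb1 KO replicate 3, which lacked a high Xist signal, was the Lkb1 KO pool closest to WT for Pax2, Slc6a5 and Gad2. The part of Xist signal in these differences was not tested. Lkb1 KO replicates 2 and 5 had the highest Pax2 and Gad2 values of all. With Y-linked signal added to the model as a covariate, the log2 fold changes of Pax2, Pax6 and Slc6a5 were 0.14, 0.23 and 0.19, and no call was left (adjusted p = 0.199, 0.166 and 0.175 from limma). Without those 2 pools they were 0.16, 0.23 and 0.20, again with no call.

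Markers of other cell types moved between the groups as well. Beside the counts called below, 2.49% of all genes were higher and 1.38% lower (adjusted p under 0.05 in limma). Of 10 fibroblast and mesenchyme genes 8 were higher in Lkb1 KO, among them Postn, Col1a2 and Lum, and the mean of the list was 8.74 to 8.83 in Lkb1 KO pools and 8.44 to 8.54 in WT pools. Tcf21 was the 1 gene of this list with a mean under 6. Of 14 proliferation genes 10 were higher, among them Kif11, Mki67 and Tpx2, with a list mean of 8.87 to 9.12 in Lkb1 KO and 8.50 to 8.72 in WT. Of 8 meningeal genes 1 was higher, Foxd1 at a log2 fold change of 0.20. At an unadjusted p under 0.05 from limma 4 of the 8 were higher and 0 lower, against 7.51% and 7.77% of all genes. The list mean of 14 sensory neuron genes was 9.42 to 9.57 in Lkb1 KO and 9.59 to 9.74 in WT, with Isl1 and Prrxl1 lower. Of these 14 genes, 0 had a log2 fold change above 0, and the median was -0.19. At an unadjusted p under 0.05 from limma 10 of the 14 were lower and 0 higher. Of 6 Schwann and crest genes 1 was lower, Cdh19, by 0.50 on the log2 scale. By the same unadjusted threshold 2 of these 6 were lower and 0 higher. It was also met by 9 of the 10 fibroblast and mesenchyme genes and by all 14 proliferation genes, all as higher. The part of these cell types in the differences of Pax2, Pax6 and Slc6a5 was not tested.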

How the data were processed

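Per the labels and methods, total RNA (250 ng) of each pool was labelled with biotin and hybridised to 1 array, and the authors made the log2 expression values by RMA (robust multi-array average, which corrects background, quantile-normalizes and summarises probes), with Partek 6.6 named in the processing notes. These deposited log2 values, for 35556 probe sets, were used as given. Its medians per array ran from 6.50 to 6.57. The number of arrays limits the precision. The genome build behind the values is not stated.

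Of the probe sets, 21789 had 1 gene in the platform annotation, 1621 several and 12146 none listed, and symbols were updated through RefSeq (GRCm38.p6) for 21698. The brightest single-gene probe set stood for each of 19938 genes, of which 999 had several and each of the 10 spinal cord genes 1. All genes were fitted together in limma 3.58.1 (R 4.3.3), Lkb1 KO against WT, with Benjamini-Hochberg adjustment over all of them and a threshold of 0.05, and also 0.01, the false discovery rate of the methods. Single genes were also tested by exact permutation over the pools in Python 3.11.15. On simulated data of 19938 genes, this comparison recovered 45 of 100 genes changed by 0.25 and 95 of 100 changed by 0.5 on the log2 scale, and called 8 unchanged genes. The simulated noise was drawn independently for each gene and array, without the shared deviations of same-numbered pools described below. These counts therefore hold for the simulated data only.

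The 10 genes and all lists were chosen with earlier results of these data known. Beside the 10, the text names up to 3 called genes in each direction and the 2 brightest of each list, the 8 genes most like the mean of the 10, and checks of the samples. Genes added after their values were seen are said to be. Listed genes without a named probe set were not analysed here.

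Both groups carry replicate numbers 1 to 5 in the labels, which do not say what a number marks. Deviations from the group means correlated between 0.21 and 0.48 for pools of the same number and between -0.48 and 0.31 for pools of different numbers, so the number was also fitted as a block. The other alternatives were other scalings, variance models, array weights, leaving out the dimmest 30% of genes, averaging of probe sets per gene, a Y-linked covariate (with Kdm5d in place of Ddx3y, which had no named probe set here), the removal of Lkb1 KO replicates 2 and 5, and the removal of each pool.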

Additional observations from a re-analysis of the deposited data

Results flagged for a closer look

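Of 96 groups of 5 pools examined, 5 held a pool far from the other 4 by Dixon's criterion, which chance meets in about 1 of 20 groups. Some of the genes examined, Gata3 among them, were added after their values were seen, so the number cannot be compared with that rate. Nkx2-2 was at 4.85 in WT replicate 1 and between 4.69 and 4.71 in the other WT pools. Irx3 was at 5.59 in Lkb1 KO replicate 4, against 5.47 to 5.50 in the other Lkb1 KO pools, and at 5.82 in WT replicate 4, against 5.47 to 5.56 in the other WT pools. Gata3, an interneuron gene named after its values were seen, was at 5.52 in Lkb1 KO replicate 2 and between 4.54 and 4.66 in the other Lkb1 KO pools. Neurod6 was at 5.86 in WT replicate 1 and between 6.64 and 6.94 in the other WT pools.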

How the results depend on the processing

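Of the 10 spinal cord genes 3 were higher, and this count fell to 1 with array weights (Slc6a5) and with the dimmest 30% of genes left out, where only Pax2 and Lbx1 were tested, and to 0 with an unmoderated analysis of variance, with the Y-linked covariate, without Lkb1 KO replicates 2 and 5, and with arrays aligned on the genes of other tissues, which was added after seeing the data. It was 2 with array medians aligned, where Pax6 had an adjusted p of 0.0673 from limma. With the replicate number as a block it was 4, Gad2 being added. Among the genes named, the block changed the calls of Gad2, Foxp2, Pax8, Slc5a7, Slc6a13 and Wnt1, given above, and of Ednrb of the Schwann and crest list (limma adjusted p = 0.165 without the block and 0.0445 with it), and no other. Leaving out 1 pool gave 0 to 4. None of the 10 passed the test as lower under any alternative. Over all genes, 496 were higher, and 715 with the replicate block, 260 in the analysis of variance and 285 with the Y-linked covariate. This count was 288 without Lkb1 KO replicates 2 and 5, and 276 with the aligned arrays. Of all genes 275 were lower, and 127 in the analysis of variance, 565 with the replicate block, 171 without Lkb1 KO replicates 2 and 5, and 146 to 347 with 1 pool left out. On the other lists 19 genes were higher, and 11 in the analysis of variance, 12 with the Y-linked covariate and 28 with the replicate block. On these lists 3 were lower, and 5 with medians aligned, with a trended robust prior or with array weights, 10 with the replicate block, and 2 to 5 with 1 pool left out. The cause of these changes was not tested.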
